A study of Mus musculus with 6 samples.

Results

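The Hox cluster genes are the homeobox genes named Hox with a cluster letter a, b, c or d and a paralogue number from 1 to 13. They were found by symbol, through the RefSeq accession that the array files give for each probe. All 39 mouse Hox genes were represented, by 43 of the 55681 probes: 14 probes for 11 HoxA genes, 11 for 10 HoxB genes, 9 for 9 HoxC genes and 9 for 9 HoxD genes. After removal of probes well above background on fewer than 2 of the 6 arrays, 40 Hox probes (38 genes) remained among 33263 probes. The 3 that were not kept included 1 of 2 Hoxa13 probes and the single Hoxb1 probe.

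Sorted cells of E12.5 mouse spinal cord were profiled on 1-colour Agilent arrays. GFP-on motor neurons (MN) came from mir-17~92 -/- ; Hb9::GFP embryos (2 arrays) and from WT ; Hb9::GFP embryos with an intact cluster (2 arrays). GFP-off cells (nonMN), all the remaining cord cells, came from the same 2 kinds of embryos (1 array each). All 4 groups were sorted by the Hb9::GFP reporter, a transgene driven by regulatory sequence of the motor neuron gene Hb9, also called Mnx1, so that MN here means cells with that reporter switched on. The labels do not say which levels of the cord were dissected, whether embryos were pooled, or that replicates came from separate embryos, so the p-values measure the spread between these samples. Precision is limited throughout by how few arrays there are. With 1 nonMN array per genotype label, the nonMN arrays were assumed in the fits to vary like the MN arrays.

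Hox genes lie in 4 clusters, on mouse chromosomes 6 (HoxA), 11 (HoxB), 15 (HoxC) and 2 (HoxD). They encode homeodomain transcription factors, and their order along a cluster matches the position along the body axis at which they are expressed, low paralogue numbers towards the hindbrain and high numbers towards the tail. In spinal motor neurons Hox proteins set the motor column and the muscle-specific pool to which a neuron belongs: Hox5 proteins act in the neurons of the diaphragm, Hox6 proteins at forelimb level, Hoxc9 at thoracic level and Hox10 proteins at hindlimb level.

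The allele in the mutant embryos removes the microRNA cluster mir-17~92, and its mature products are shown because they define the genotype. The sequences are those of RefSeq (GRCm38.p6, plus strand of chromosome 14), written 5′ to 3′ with the seed (bases 2 to 8) in capitals.
mmu-miR-17-5p: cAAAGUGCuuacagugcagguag
mmu-miR-20a-5p: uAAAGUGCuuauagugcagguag
mmu-miR-18a-5p: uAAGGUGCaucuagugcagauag
mmu-miR-19a-3p: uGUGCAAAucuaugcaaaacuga
mmu-miR-19b-3p: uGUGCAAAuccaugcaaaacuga
mmu-miR-92a-3p: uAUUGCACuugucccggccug
miR-17-5p and miR-20a-5p share a seed, as do miR-19a-3p and miR-19b-3p, while miR-18a-5p and miR-92a-3p each have their own.

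Promoter sequence is shown for 3 Hox genes whose values are described below: Hoxd10 and Hoxd11 from the caudal end of their cluster, and Hoxa5 from the rostral part. RefSeq promoter entries were given for 22 of the 39 genes (24 entries). Each line holds the 250 bases upstream of the annotated start, and capitals mark matches to the motifs searched.
Hoxd10, chr2:74691641-74691890, plus strand: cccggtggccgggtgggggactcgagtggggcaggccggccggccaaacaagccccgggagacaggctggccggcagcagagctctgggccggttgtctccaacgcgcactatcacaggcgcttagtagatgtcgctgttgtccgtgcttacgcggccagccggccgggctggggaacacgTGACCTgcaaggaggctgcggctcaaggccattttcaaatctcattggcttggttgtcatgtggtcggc
Hoxd11, chr2:74682073-74682322, plus strand: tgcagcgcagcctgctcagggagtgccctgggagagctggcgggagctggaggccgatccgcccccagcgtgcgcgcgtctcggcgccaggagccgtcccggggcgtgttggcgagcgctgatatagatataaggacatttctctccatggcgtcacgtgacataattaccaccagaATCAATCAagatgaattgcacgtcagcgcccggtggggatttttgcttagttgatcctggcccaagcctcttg
Hoxa5, chr6:52204588-52204837, minus strand: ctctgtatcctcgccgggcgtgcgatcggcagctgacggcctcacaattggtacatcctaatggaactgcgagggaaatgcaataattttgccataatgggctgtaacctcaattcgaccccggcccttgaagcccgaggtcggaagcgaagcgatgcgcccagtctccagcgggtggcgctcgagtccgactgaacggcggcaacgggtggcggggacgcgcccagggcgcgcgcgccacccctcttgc
The motifs, searched on both strands, were TGATNNAT (a site bound by Hox with Pbx proteins), TTTATG (bound by caudal-type homeodomain proteins) and AGGTCA (the half-site of retinoid receptors). The reverse complement of AGGTCA starts 69 bases upstream of the Hoxd10 start, and that of TGATNNAT 73 bases upstream of the Hoxd11 start shown. The Hoxa5 window holds no match. Hoxd11 has a second entry, not shown, whose window holds no TGATNNAT but the reverse complement of TTTATG, 87 bases upstream of its start. Among the 24 Hox windows, 4 held TGATNNAT, 5 held TTTATG and 6 held AGGTCA. Over 32851 promoter windows of the same length the shares were 7.68%, 10.8% and 14%. The Hox windows held 2 to 35 CG dinucleotides, against a median of 6 over all windows. A match describes these letters only.

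Signals differed among the arrays as a whole. Their 75th percentile signals were 59.9 and 506 for KO MN (replicates 1 and 2), 48.5 and 64.5 for WT MN, 550 for KO nonMN and 340 for WT nonMN. The 2 wild-type-labelled MN arrays stood apart: replicate 2 correlated at 0.74 to 0.81 with all arrays but replicate 1 (0.93), and the cause was not tested. Mir17hg, the host transcript of the targeted cluster, gave log2 signals of 4.55, 4.78 and 4.62 on the 3 knockout-labelled arrays, against -2.38, 2.73 and -1.23 on the 3 wild-type-labelled arrays. Whether the deletion covers this probe is not known here; if it does, the values contradict the labels. Groups are therefore named KO and WT as labelled, and genotype directions rest on those labels. Mnx1 had no matched probe, and all 9 kept motor neuron marker probes were higher in MN than in nonMN, of which 4 (for Lhx3, Lhx4, Chat and Slc18a3) passed the test. Of all probes, 45.9% were higher in MN, and 0.854% passed in either direction. In MN, genotype label and slide row cannot be told apart, since KO MN filled row 1 while WT MN and both nonMN arrays filled row 2. The descriptions give KO MN replicate 1 and the KO nonMN array one tag (A3), and WT MN replicate 1 and the WT nonMN array another (B4), with no stated meaning.

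Most Hox genes were detected in every group. Of the 43 Hox probes, 37 and 41 were well above background on the knockout-labelled MN arrays, 35 and 38 on the wild-type-labelled MN arrays, 37 on the knockout-labelled nonMN array and 39 on the wild-type-labelled nonMN array. All 5 probes of paralogue 9 were above background on every array, and so were all 15 probes of paralogues 4 to 8 except on WT MN replicate 1, where the Hoxc8 probe was not. The gaps were at the ends of the clusters: 7 to 9 of 10 probes of paralogues 1 to 3, and 9 to 12 of 13 probes of paralogues 10 to 13, were above background on a given array. Below, each value is a log2 signal relative to its array's 75th percentile, so values of 1 probe may be set side by side across arrays but not values of different probes.

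**Figure D1:**
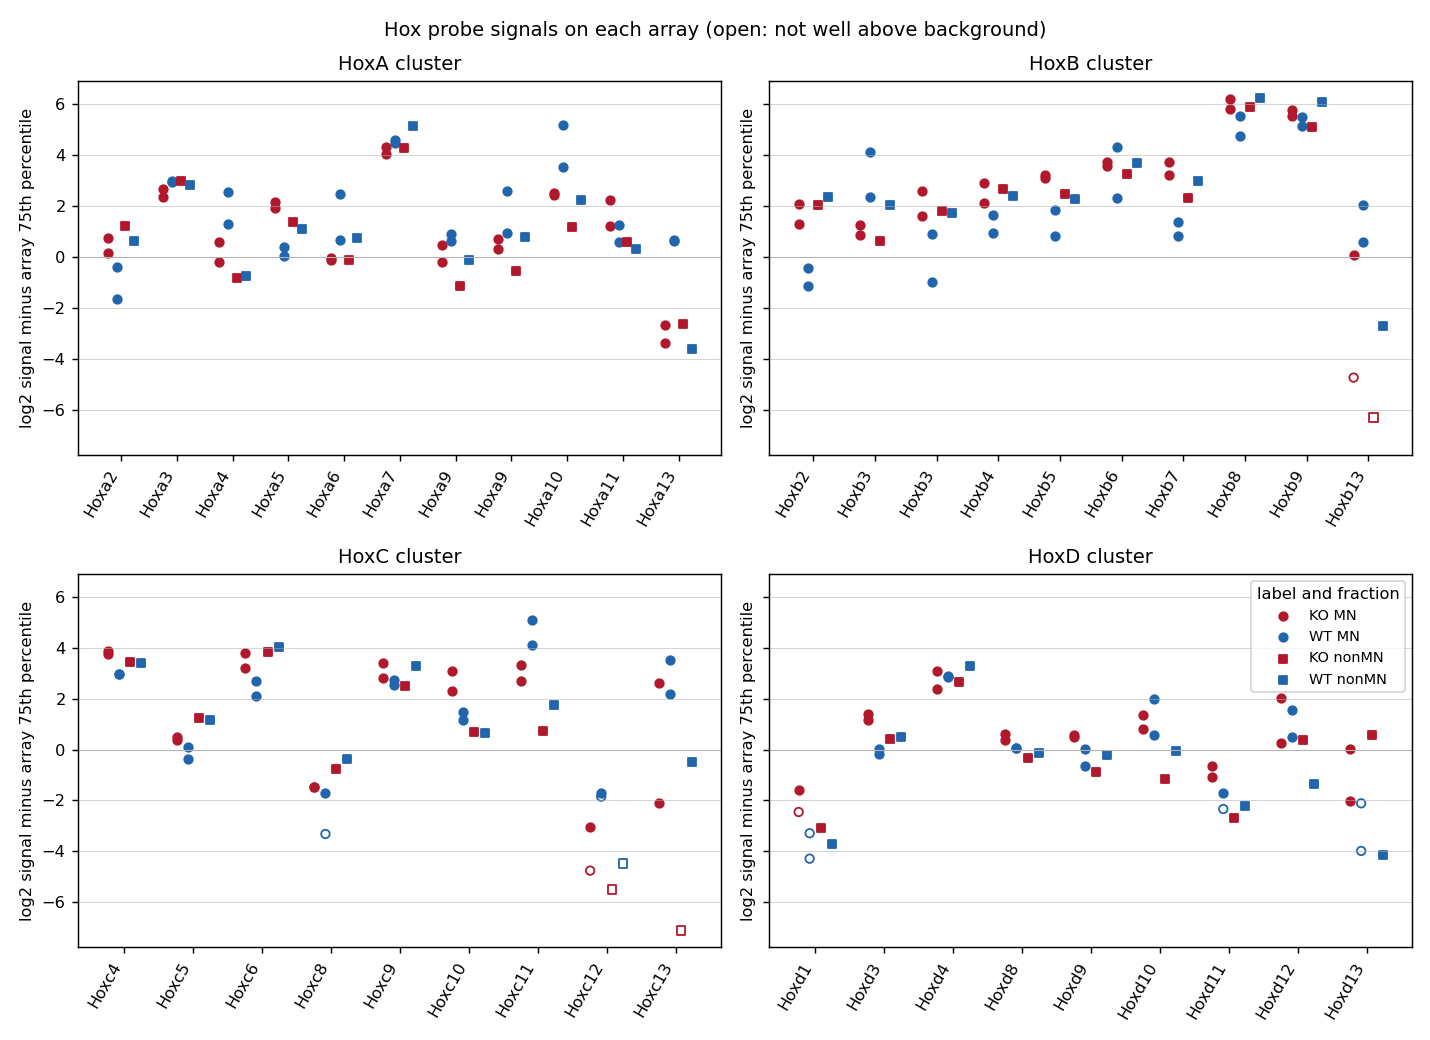
Log2 signal minus the array's 75th percentile for the kept Hox probes reported singly, ordered by paralogue number within each cluster, with 1 point per array for knockout-labelled and wild-type-labelled motor neurons (MN, circles) and GFP-off cells (nonMN, squares). Open symbols are not well above background. The widest spreads between arrays are those of Hoxc13, Hoxb13 and Hoxd13, and the 2 arrays of a group lie up to 4.82 apart (Hoxb13, KO MN).

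The comparison of MN with nonMN asks how Hox levels in motor neurons differ from those of the rest of the cord. Probes of paralogues 10 to 12 lay higher in MN, although none passed the test singly. All 8 probes of paralogues 10 to 12, none of which the filter removed, had a positive difference (0.88 to 2.57 on the log2 scale, median 1.64), against 45.9% positive and a median of -0.09 over all 33263 probes. This block was cut with earlier results of these data known, so its counts only describe these arrays. Hoxc12, 1 of the 8, passed the filter only through 2 MN arrays. Of the 4 kept probes of paralogue 13, the Hoxd13 probe was negative (-0.25). Over paralogues 10 to 13, 11 of 12 kept probes were positive (median 1.75), and of paralogue 9, 3 of 5 (median 0.64). Of the 23 probes of paralogues 1 to 8, 7 were positive and 16 negative, with a median of -0.15, near that of all probes. Their direction turned with the setting: 14 of 23 were positive within the knockout label (median 0.14), and 16 of 23 with the spike-in signal as covariate (median 0.22). No single Hox probe passed the test in the fit of all probes (limma, adjusted p below 0.05), while 0.854% of all probes did. At an unadjusted p below 0.05 stood 14 of the 40 Hox probes (35%), against 19.1% of all probes, and 8 of those 14 were among the 12 probes of paralogues 10 to 13.

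Hoxc11, expressed in the caudal cord, came closest to the threshold among the Hox probes. Its log2 signal was 2.68 and 3.32 in KO MN and 4.11 and 5.10 in WT MN, against 0.72 in KO nonMN and 1.75 in WT nonMN. All 4 MN arrays lay above both nonMN arrays, by 2.57 ± 0.50 (SE, n = 4 against 2), a 5.94-fold difference with an adjusted p of 0.0511 (limma). With 1 probe per gene, where 14917 probes were tested, Hoxc11 passed. The Hox10 genes, which define hindlimb-level motor neurons, had values that did not pass the test. Hoxd10 read 0.81 and 1.36 in KO MN and 0.56 and 1.97 in WT MN, against -1.17 in KO nonMN and -0.07 in WT nonMN, a difference of 1.80 ± 0.55 (adjusted p = 0.138). Every MN array exceeded both nonMN arrays.

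Hoxa10 followed the same order of groups, with 2.52 and 2.43 in KO MN and 3.55 and 5.19 in WT MN, against 1.19 in KO nonMN and 2.25 in WT nonMN. The difference was 1.71 ± 0.56 (adjusted p = 0.158), again with no overlap. Hoxc10 read 3.10 and 2.29 in KO MN and 1.47 and 1.17 in WT MN, against 0.67 and 0.66 in KO and WT nonMN. That gave 1.34 ± 0.52 (adjusted p = 0.208), and the 2 WT MN arrays were the lower MN arrays. Hoxd11, a paralogue of Hoxc11, read -1.07 and -0.66 in KO MN and -2.34 (below background) and -1.69 in WT MN, against -2.69 and -2.21 in KO and WT nonMN. Its difference was 1.01 ± 0.53 (adjusted p = 0.324), and WT MN replicate 1 lay below the WT nonMN array. Hoxa11 (0.88) and Hoxd12 (1.57) were positive with overlap between the groups. Hoxc12 was below background on every array but KO MN replicate 2 and WT MN replicate 2, through which alone it passed the filter. Its difference of 2.15 ± 0.58 (adjusted p = 0.105, limma) is therefore approximate. Over the 40 Hox probes, 6 had all MN arrays above both nonMN arrays (15%, against 9.42% of all probes): Hoxa4, Hoxd8, Hoxa10, Hoxc10, Hoxd10 and Hoxc11.

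**Figure D2:**
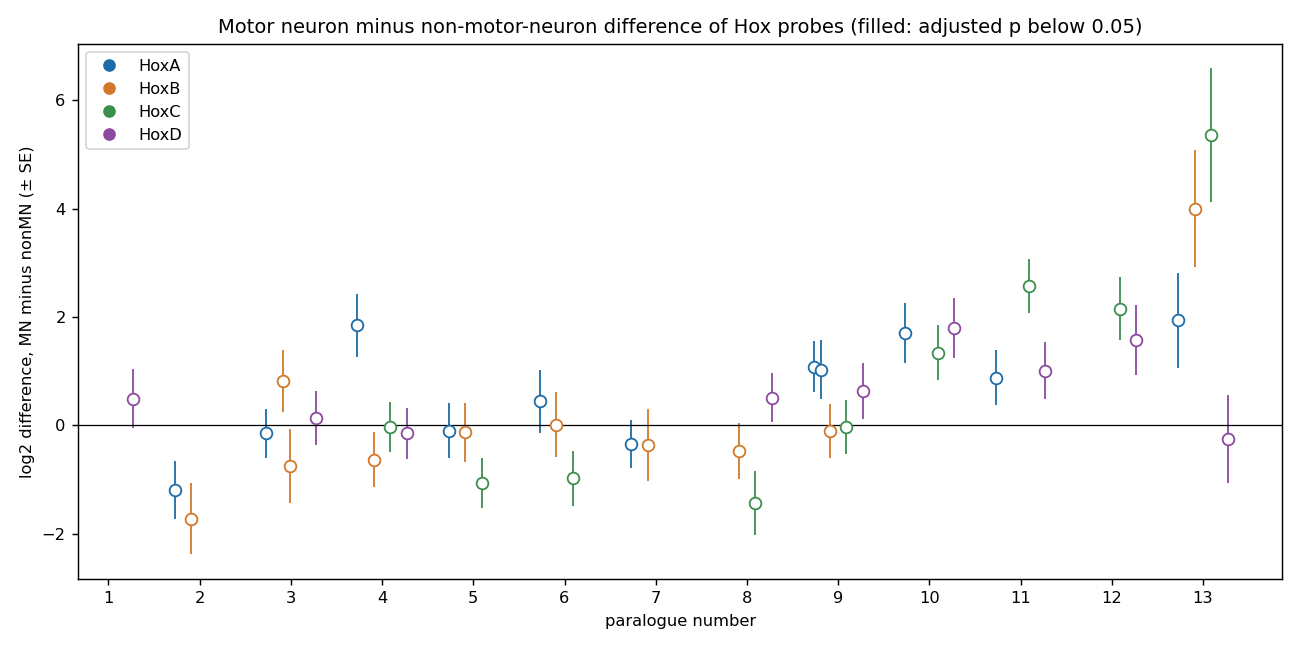
Log2 difference between motor neurons (MN) and GFP-off cells (nonMN), ± SE from the additive fit over 6 arrays, for the kept Hox probes reported singly, against its paralogue number, coloured by cluster. No point is filled, since no probe had an adjusted p below 0.05, and all 8 probes of paralogues 10 to 12 lie above 0.

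Among the paralogue 13 genes, the most caudal of each cluster, those of HoxC, HoxB and HoxD had the widest spreads of all kept Hox probes over the 6 arrays, at 10.6, 8.36 and 4.72 on the log2 scale. Hoxa13 spanned 4.30, less than Hoxc11 (4.38), with -2.66 and -3.39 in KO MN and 0.67 and 0.64 in WT MN, against -2.63 and -3.63 in KO and WT nonMN (1.94 ± 0.88, adjusted p = 0.265). Hoxc13 read -2.10 and 2.63 in KO MN and 3.54 and 2.20 in WT MN, against -7.10 (below background) in KO nonMN and -0.47 in WT nonMN. The difference of 5.36 ± 1.23 (adjusted p = 0.0744) was the largest among Hox probes, but its size is approximate, since 1 of the 2 nonMN values was below background, and leaving out an array gave 3.34 to 7.37. KO MN replicate 1 lay below the WT nonMN array. Hoxb13 read -4.74 (below background) and 0.08 in KO MN and 2.05 and 0.59 in WT MN, against -6.31 (below background) in KO nonMN and -2.70 in WT nonMN (4.0 ± 1.07, adjusted p = 0.105, also approximate). For both genes the 2 lowest arrays of the label KO were the pair that carries the tag A3. Hoxd13 read -2.02 and 0.03 in KO MN and -2.11 and -3.98 (both below background) in WT MN, against 0.59 in KO nonMN and -4.14 in WT nonMN, a difference of -0.25 ± 0.81. Its highest and its lowest value were thus both on nonMN arrays.

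Among paralogues 1 to 8, 3 HoxC probes had all MN arrays below both nonMN arrays (7.5% of the 40 Hox probes, against 14.8% of all probes). Hoxc5, which acts in motor neurons of the diaphragm, read 0.50 and 0.39 in KO MN and -0.38 and 0.12 in WT MN, against 1.25 and 1.18 in KO and WT nonMN (-1.06 ± 0.46, adjusted p = 0.248). Hoxc6, of forelimb-level motor neurons, read 3.21 and 3.80 in KO MN and 2.68 and 2.11 in WT MN, against 3.83 and 4.03 in KO and WT nonMN (-0.98 ± 0.51, adjusted p = 0.32). Hoxc8, of the caudal brachial cord, read -1.49 and -1.46 in KO MN and -3.32 (below background) and -1.70 in WT MN, against -0.76 and -0.35 in KO and WT nonMN (-1.43 ± 0.59, adjusted p = 0.233). None of the 3 passed the test. Hoxc9, which sets thoracic motor neuron identity, overlapped between the fractions: 2.80 and 3.41 in KO MN and 2.54 and 2.73 in WT MN, against 2.51 and 3.30 in KO and WT nonMN (-0.03 ± 0.50). Hoxb2, a gene of the hindbrain and rostral cord, had the most negative difference (-1.73 ± 0.66, adjusted p = 0.206), with its WT MN values below all others. The most negative HoxA difference was that of Hoxa2, another gene of the hindbrain, which read 0.15 and 0.75 in KO MN and -0.39 and -1.65 in WT MN, against 1.20 and 0.63 in KO and WT nonMN (-1.20 ± 0.53, adjusted p = 0.262).

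The order of paralogues was also read within each genotype label. The labels use different arrays, but the comparison over both labels rests on these same arrays. The readings below are therefore not independent of it. Within the knockout label all 8 probes of paralogues 10 to 12 were positive (median 1.71), and within the wild-type label all 8 were positive as well (median 1.73). They include Hoxc12, which was below background on both nonMN arrays. They also include Hoxd11, at 0.20 within the wild-type label with overlap between the groups. Over paralogues 10 to 13 the positive probes were 10 of 12 within the knockout label and 12 of 12 within the wild-type label. For paralogues 1 to 8 the count of positive probes was 14 of 23 within the knockout label (median 0.14) and 5 of 23 within the wild-type label (median -0.61). Among all probes, 41.6% were positive within the knockout label (median -0.14) and 50.4% within the wild-type label (median 0.01). Of the 40 Hox probes, 24 had the same sign in both labels (60%, against 64.1% of all probes), and the differences correlated with r = 0.547 (Spearman rho = 0.542) across probes, which share arrays and are not replicates. Over all probes r was 0.423. No Hox probe passed within the knockout label (0% of all probes did), where 6 of 40 had an unadjusted p below 0.05, against 7.55% of all probes. Within the wild-type label 2.55% of all probes and 1 Hox probe passed: Hoxa13 was higher in MN by 4.28 ± 0.65 (adjusted p = 0.0265; 0.054 without WT MN replicate 2), against -0.40 within the knockout label. The test of the difference between the labels called no probe (0% of 33263, 8.44% at an unadjusted p below 0.05, and 3 of 40 Hox probes), and gave Hoxa13 an adjusted p of 0.513.

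**Figure D3:**
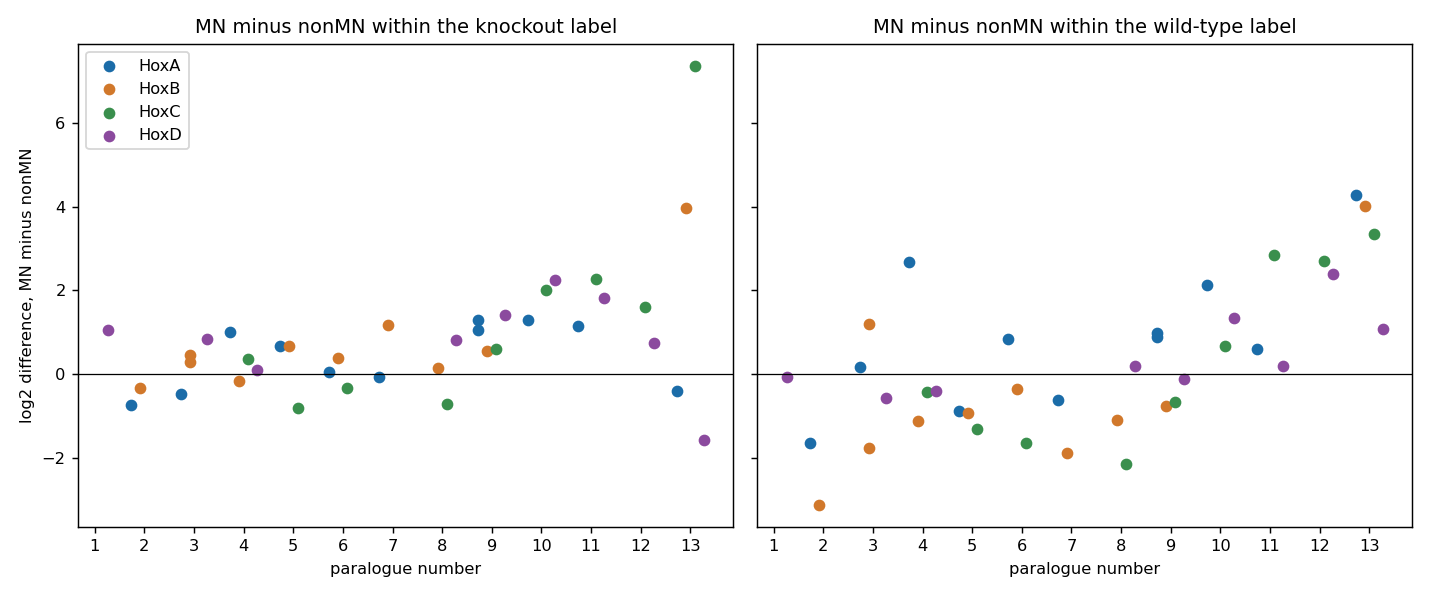
Log2 difference between MN and nonMN for the kept Hox probes reported singly, against paralogue number, within the knockout label (left) and within the wild-type label (right), coloured by cluster. The 8 probes of paralogues 10 to 12 are above 0 in both panels, and 14 probes of paralogues 1 to 8 are above 0 on the left and 5 on the right.

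Signal strength and the levels of some cell type markers differed between the 2 fractions. Both nonMN arrays were bright, while 3 of the 4 MN arrays were dim. KO MN replicate 2, the bright MN array, differed from the KO nonMN array by 1.24 to 2.60 over the 8 probes of paralogues 10 to 12 (median 1.84). For the dim KO MN replicate 1 the range was -0.15 to 2.42 (median 1.47), with 7 of 8 positive. Each sets 1 array against 1, and the part of signal strength in the Hox differences was not tested. The 11 mesenchyme marker probes were all lower in MN, with 1 passing the test (Tbx5, -3.08, approximate because 2 of its 4 MN values were below background), and their mean log2 signal was 2.99 and 3.27 in KO MN and 2.77 and 1.90 in WT MN, against 4.66 and 4.01 in KO and WT nonMN. All 7 red cell probes were lower in MN, and 5 of them fell. These counts of marker probes stand beside 45.9% positive and 0.854% called among all probes. The 7 neural crest and sensory neuron probes were all higher in MN, and 2 rose, those for the neural crest factors Sox10 (3.93, adjusted p = 0.0274) and Foxd3 (4.29, adjusted p = 0.0117). Their mean log2 signal was 2.12 and 1.89 in KO MN and 0.83 and 0.74 in WT MN, against -0.94 and -0.60 in KO and WT nonMN. Other lists held no call: 4 of 12 microglia and macrophage probes and 4 of 5 progenitor probes were higher in MN. The part of these cells in the Hox differences was not tested, and in sorted bulk samples fewer cells of a type and less RNA per cell cannot be told apart.

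Genes beside the clusters and genes that act with Hox proteins were examined from fixed lists. Each count of calls here stands beside 0.854% called and 45.9% positive among all probes. Of 8 kept probes of neighbouring or opposite-strand transcripts, 5 of which share the name HOTAIR, all were higher in MN and 2 passed (25%). Evx1, a homeobox gene next to HoxA that marks ventral interneurons, rose by 3.84 ± 0.57 (adjusted p = 0.033). One of the 5 probes that the array files name HOTAIR, the name of an antisense RNA of the HOXC cluster in human, rose by 2.75 ± 0.45 (adjusted p = 0.0367), and the other 4 gave 1.63 to 2.38. These 5 were named by the files and not by accession. Of 17 probes of Hox cofactors (the Meis, Pbx and Pknox partners and Foxp1) none passed, and of 11 probes of Hox regulators 1 fell (9.09%), that for Cyp26a1, which degrades retinoic acid (adjusted p = 0.0483). Its log2 signal was -4.78 and -4.54 in KO MN and -4.14 and -4.31 in WT MN, against -1.84 and -2.18 in KO and WT nonMN. Of those MN values only that of KO MN replicate 2 was above background, so the difference of -2.43 ± 0.46 is approximate. None of 16 Polycomb and trithorax probes passed.

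The comparison of genotype labels within MN asks whether Hox levels change with loss of mir-17~92. Of the 40 Hox probes, 4 rose and 3 fell in knockout-labelled MN (limma), 7 of 40, against 24.8% of all probes (10.6% higher, 14.2% lower). The share of Hox probes was thus near or below that of probes in general. The 4 that rose were Hoxb2, Hoxb7, Hoxb5 and Hoxa5, and the 3 that fell were Hoxa13, Hoxc12 and 1 of 2 Hoxb3 probes. The median difference of the Hox probes was 0.46, against -0.20 over all probes. By cluster it was -0.54 for HoxA, 1.05 for HoxB, 0.58 for HoxC and 0.85 for HoxD. With the spike-in signal as covariate the Hox median turned to -0.20, with 18 of 40 probes positive, against -0.23 over all probes, and the HoxC median turned to -0.19. With array medians subtracted the Hox median was 1.09, against 0.44 over all probes, and the HoxA median turned to 0.092.

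Hoxb2 read 1.30 and 2.10 in KO MN, against -0.43 and -1.14 in WT MN, a difference of 2.48 ± 0.56 or 5.58-fold (SE, n = 2 against 2, adjusted p = 0.0191). Hoxb7, of the middle of HoxB, read 3.21 and 3.73 in KO MN, against 1.37 and 0.82 in WT MN (2.38 ± 0.54, adjusted p = 0.0189). The KO and WT nonMN arrays, at 2.03 and 2.34 for Hoxb2 and at 2.30 and 2.99 for Hoxb7, lay above both WT MN arrays, which were thus the lowest of the 6 for both genes.

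Hox5 genes specify the motor neurons of the diaphragm. Hoxb5 read 3.10 and 3.20 in KO MN, against 0.83 and 1.83 in WT MN (1.82 ± 0.56, adjusted p = 0.0426). Hoxa5 read 1.91 and 2.14 in KO MN, against 0.05 and 0.39 in WT MN (1.81 ± 0.51, adjusted p = 0.0347). Both genes had their 2 lowest values on the WT MN arrays, with nonMN values between: 2.48 and 2.27 for Hoxb5, and 1.36 and 1.09 for Hoxa5, in KO and WT nonMN. The paralogue Hoxc5 gave 0.58 ± 0.52 and did not pass.

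Hoxa13 read -2.66 and -3.39 in KO MN, against 0.67 and 0.64 in WT MN, and fell by 3.68 on the log2 scale (SE 0.53, adjusted p = 0.00868). Its value on KO MN replicate 1 lay just above the dimmest above-background signal of that array (-2.76), so this size is approximate. The nonMN arrays, at -2.63 and -3.63 in KO and WT, lay with the KO MN arrays. Its second probe was below background on all 6 arrays. Hoxc12 fell by 2.11 (SE 0.65, adjusted p = 0.0429): it read -4.76 (below background) and -3.03 in KO MN, against -1.85 (below background) and -1.71 in WT MN, so this size is approximate, and without KO MN replicate 1 it was -1.25. Both nonMN values of Hoxc12, -5.50 in KO and -4.48 in WT, were below background. The 2 Hoxb3 probes went in opposite directions. The probe that fell (A_51_P460643) read 1.27 and 0.86 in KO MN, against 2.34 and 4.13 in WT MN (-2.17 ± 0.66, adjusted p = 0.0424, and -1.27 without WT MN replicate 2). Its nonMN values were 0.61 in KO and 2.04 in WT. The second probe (A_52_P312467) gave 2.13 ± 0.70 (adjusted p = 0.0532). Between fractions they also differed in sign, at 0.82 and -0.74. The 2 Hoxa9 probes agreed in sign, at -0.63 and -1.26 between the labels and at 1.08 and 1.03 between the fractions.

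**Figure D4:**
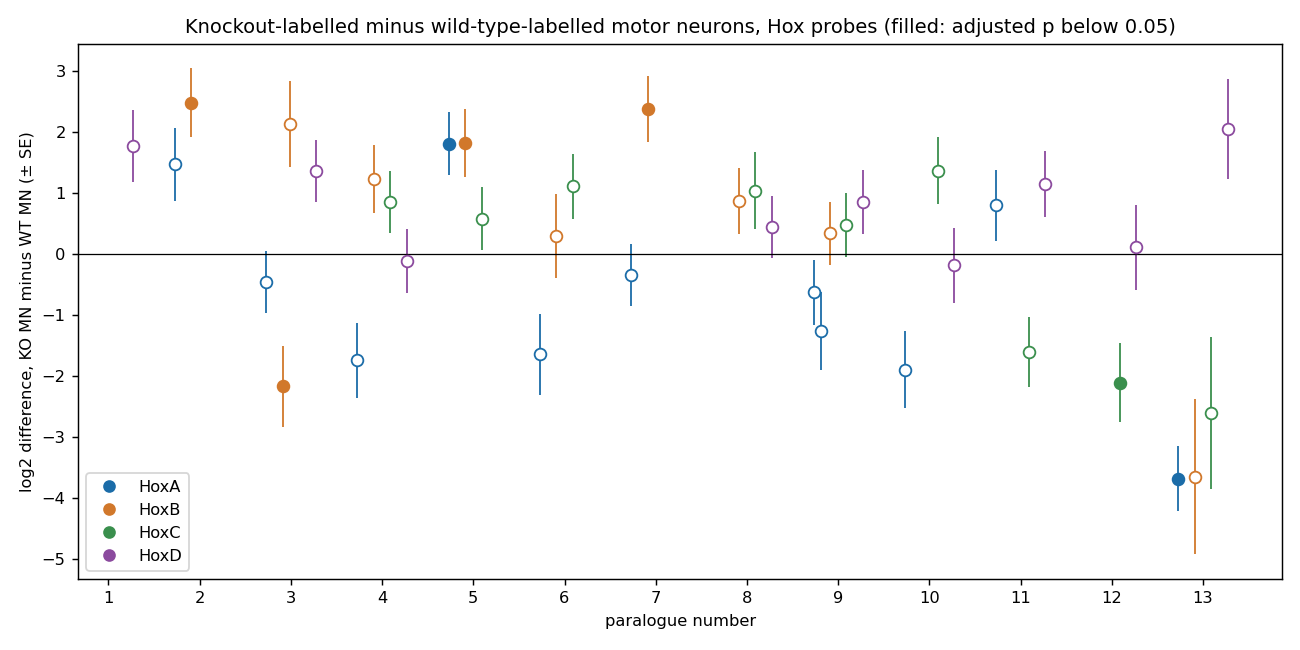
Log2 difference between knockout-labelled and wild-type-labelled motor neurons (MN), ± SE from the fit of 4 group means, for the kept Hox probes reported singly, against paralogue number, coloured by cluster. Filled points are the 7 probes with an adjusted p below 0.05, 4 above 0 and 3 below.

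The other genes of known role in motor neuron subtypes did not pass this test. Their differences were 1.11 ± 0.54 for Hoxc6, 1.03 ± 0.63 for Hoxc8, 0.47 ± 0.53 for Hoxc9, -1.90 ± 0.63 for Hoxa10 (adjusted p = 0.0551), 1.37 ± 0.54 for Hoxc10, -0.18 ± 0.62 for Hoxd10 and 1.15 ± 0.54 for Hoxd11. The most negative differences in HoxC and HoxB were those of Hoxc13 (-2.61 ± 1.25) and Hoxb13 (-3.65 ± 1.28), neither past the test. Both rested on which KO MN array entered: without KO MN replicate 1 they were -0.24 and -1.24, and without KO MN replicate 2 -4.97 and -6.06. Hoxd13, below background on both WT MN arrays, was at least 2.31-fold higher in KO MN (adjusted p = 0.0911), a bound of 1.14-fold without KO MN replicate 2 and 4.70-fold without KO MN replicate 1. The 3 Hox10 genes thus gave values of both signs, and so did the 4 paralogue 13 genes, with Hoxd10 turning to 0.45 when array medians were subtracted. Groups without overlap were frequent everywhere: 21 Hox probes were higher on both KO MN arrays than on both WT MN arrays (52.5%, against 29.8% of all probes) and 12 were lower (30%, against 39.7%).

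These 7 calls rested on the setting. All 7 had the same sign under every alternative in which they were tested, but none passed without the filter on dim probes, in an additive model over all 6 arrays or after adding each array's spike-in signal as a covariate. Without KO MN replicate 2, 2 of the 7 passed (Hoxa13 and Hoxc12), without WT MN replicate 2 again 2 (Hoxa13 and Hoxb5), without KO MN replicate 1 3 (Hoxa13, Hoxb2 and Hoxb7), and without WT MN replicate 1 5 (all but Hoxb5 and Hoxc12). Hoxa13 passed without each array in turn, at -3.32 to -4.05. The same groups differed in other respects: 7 of 12 microglia and macrophage probes rose in knockout-labelled MN. Of the 7, 4 were below background on both WT MN arrays (Cx3cr1 on 1 of 2 probes, Tyrobp, C1qa and Mrc1), at least 1.47- to 12.2-fold higher in KO MN. Over the 7 microglia and macrophage probes above background on every array, of which 3 rose, the mean log2 signal was 1.38 and 1.14 in KO MN, against 0.40 and 0.18 in WT MN, and 1.06 and 0.17 in KO and WT nonMN. In the other marker lists, 2 of 7 neural crest and sensory neuron probes, 2 of 7 red cell probes, 2 of 5 progenitor probes and 1 of 11 mesenchyme probes rose in KO MN and none fell, against 10.6% higher among all probes. Of the motor neuron marker probes, 4 of 9 rose (Isl1, Isl2, Prph and 1 of 2 Slc5a7 probes). The part of these in the Hox values was not tested.

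Among genes that act with Hox proteins, 3 of 17 cofactor probes rose, those for Pbx3 and Pknox1 among them, and 1, for Foxp1, fell. The Pknox1 probe that rose gave 1.94, while the other kept Pknox1 probe gave -0.59 and did not pass. Pbx3 gave 1.72 ± 0.52, and the 3 Foxp1 probes gave 1.42, -0.77 and -2.16, the last approximate because 1 array of each group was below background. Of 16 Polycomb and trithorax probes, which keep Hox genes silent or active, 5 rose (both Bmi1 probes, Rnf2, Suz12 and 1 of 2 Ezh1 probes) and 1, for Pcgf2, fell. The Pcgf2 probe that fell gave -2.26, while the other kept Pcgf2 probe gave -0.38 and did not pass. Bmi1 rose by 2.84 and 1.96 on its 2 probes, and Rnf2 by 2.41. None of 11 regulator probes and none of 8 neighbouring-transcript probes passed. The shares called, as for the Hox probes, stand beside 24.8% of all probes.

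Between the 2 nonMN arrays, KO and WT, there is no replicate and no test. The KO nonMN array lay below the WT nonMN array for 26 of 40 Hox probes (median -0.39, against -0.03 over all probes), including all 5 probes of paralogue 9 (-0.68 to -1.33). Hoxc13 was at least 22.5-fold and Hoxb13 at least 4.81-fold lower on the KO nonMN array, where both were below background, and Hoxd13 was higher there by 4.72.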

How the data were processed

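Agilent Feature Extraction was version 10.5.1.1 per the file headers, whereas version 9.1 stands in the submitters' processing notes. The deposited scanner files give each spot's processed signal as an intensity, background-subtracted, with flags (other values, coded 0 or 1) for spots above background; the authors' deposited value table is log2, and lies within 0.00298 of the log2 processed signal per probe minus the array's 75th percentile, apart from 12 values that were left out here as outlier-flagged spots. The values used here were computed the same way from the scanner files. Probes were named through the RefSeq accession in a GRCm38.p6 table (26300 of 55681 matched 1 gene), since the files used here have no gene name column; the headers name mm9, so coordinates are given only with RefSeq sequences.

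Probes well above background on at least 2 of 6 arrays were fitted with limma 3.58.1 in R 4.3.3 (lmFit, eBayes), with Benjamini-Hochberg adjustment over all 33263 and a threshold of 0.05. MN and nonMN were compared in an additive model with genotype label as covariate, and the other comparisons in a model of 4 group means. Where a whole group was below background and the other group wholly above it, the fold is a lower bound. It was computed against the dimmest above-background signal of each array (or the probe's own signal where higher). The steps were tested on simulated data.

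Values in every array were given for Hox probes past the threshold, for the largest differences per cluster, and for genes known from motor neuron subtypes (Hoxa5, Hoxc5, Hoxc6, Hoxc8, Hoxc9, Hoxa10, Hoxc10, Hoxd10 and Hoxd11); Hoxc11, Hoxa4, Hoxd8, Hoxa11, Hoxd12 and Hoxa9 were named after their values were seen. Members, paralogue blocks and lists were chosen with earlier results of these data known. Alternatives tried were other scalings, background correction, filters, covariates, blocks and leaving out each array. Some genes that the lists and the Hox set contain are counted but not reported singly or plotted here.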

Additional observations from a re-analysis of the deposited data

Results flagged for a closer look

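Among the 4 MN arrays, 1 of the 40 Hox probes had a value far from the other 3. The Hoxc8 probe read -3.32 on WT MN replicate 1, against -1.70 on WT MN replicate 2 and -1.49 and -1.46 on the KO MN arrays, a gap of 0.871 of the whole range. That spot was not well above background. Chance flags about 1 in 20 such groups.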

How the results depend on the processing

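The count of Hox probes called between knockout-labelled and wild-type-labelled MN (7) was 17 when each array's median was subtracted, 14 for probes above background on all 6 arrays, 1 after quantile normalization, 2 after normexp, 2 with the spike-in signal as covariate, and 0 both without the filter (11 at an unadjusted p below 0.05) and in the additive model (16); leaving out an array gave 2 to 14. With the replicate number as a block it was 14; same-numbered samples did not deviate together (r = -0.096), so the numbers are not a pairing. Over all probes the split of 3524 higher and 4734 lower became 7282 and 2568 with array medians (median difference 0.44), 1578 and 392 with quantiles (0.05) and 903 and 429 with normexp (-0.45). For MN against nonMN, the 0 called Hox probes became 2 with array medians, 1 with normexp, 1 above background on all arrays, 1 with 1 probe per gene, 2 with the spike-in covariate, 3 with the shared tag as replicate block and 0 to 3 leaving out an array; the called genes were Hoxc11, Hoxb13, Hoxc13 and, without KO nonMN, Hoxa13. Over all probes 216 higher and 68 lower became 336 and 191 with array medians, 41 and 34 with normexp, and 0 and 0 with quantiles (5625 at an unadjusted p below 0.05). Within the KO label 0 became 2 with array medians, 1 with normexp and 0 to 2 leaving out an array; within the WT label 1 became 8 with array medians, 0 with quantiles, 3 with normexp, 0 without the filter, 5 above background on all arrays, 3 with 1 probe per gene and 0 to 5 leaving out an array. The difference between labels gave 0 to 1 leaving out an array. Paralogues 10 to 12 were all positive for MN against nonMN in each of 15 alternatives (medians 1.19 to 2.09), in 11 of 12 within the KO label and in 9 of 12 within the WT label; for paralogues 1 to 8 the positive probes numbered 5 to 16, with 14 of 23 without the WT nonMN array. Directions turned as follows. Between labels in MN, the spike-in covariate gave Hoxd13 -2.40, Hoxd10 0.055, Hoxc6 -0.19 and Hoxc9 -0.30; Hoxd10 was 0.45 with array medians, 0.086 with normexp and -0.89 to 0.52 leaving out an array; Hoxc8 was -0.22 with normexp. Between MN and nonMN, the spike-in covariate gave Hoxa2 0.22, Hoxd13 2.21, Hoxa5 0.26, Hoxc6 0.15 and Hoxc9 0.74; Hoxd13 was 0.35 with normexp and Hoxc9 0.054 with quantiles. Leaving out an array gave -0.40 to 4.28 for Hoxa13, -1.58 to 1.09 for Hoxd13, -0.87 to 0.66 for Hoxa5 and -0.67 to 0.60 for Hoxc9. The causes were not tested. The authors' value table changed no call. Dim arrays limit probes near background, and 1 nonMN array per label limits every comparison with nonMN.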
